A study of Mus musculus with 4 samples.

Results

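The keratin genes are described here in ureters of NMRI mouse embryos at E18.5, the stage just before birth. They were found by name: every probe on the arrays, controls aside, whose deposited gene name was Krt followed by a number and at most 1 letter was taken, which gave 68 probes for 52 genes out of 39429 probes in all. A gene's value is that of its brightest probe. The genes comprise 28 of type I and 24 of type II, and 34 of them (19 of type I and 15 of type II) were bright enough to be tested, among 18161 tested genes.

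The mutant ureters, called cKO, carried Pax2-cre/+; Trp63(dN-flox/dN-flox). The control ureters carried Trp63(dN-flox/?), with no cre listed and the second allele not stated, so a floxed allele was present in both genotypes. Each of 4 arrays with 2 colours held cKO RNA in one channel and control RNA in the other. The pair on array 2 was male, the pairs on arrays 1, 3 and 4 were female, and the dyes were swapped on every other array, with the cKO in red on arrays 1 and 3. The labels do not say whether an RNA came from 1 embryo or several, so the p-values cover only the variation among these 4 arrays. Pax2-cre is a transgene active in the nephric duct lineage, from which the ureter's epithelium forms, while the muscle and connective tissue around it have another origin and should keep the gene.

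Keratins are the intermediate filament proteins of epithelial cells. A filament forms only when a type I (acidic) keratin pairs with a type II (basic) keratin, so each kind of epithelium makes at least 1 of each. Krt5 and Krt14 mark basal cells of stratified epithelia, Krt8 and Krt18 are the general pair of simple epithelia, Krt1 and Krt10 belong to differentiating epidermis, Krt4 and Krt13 to moist squamous linings, and a large set is made only in hair and nail. The ureter is lined by urothelium, with basal cells below, intermediate cells above them and superficial cells that bear uroplakins and Krt20. The transcription factor p63, encoded by Trp63, is a known regulator of basal keratin genes, and its ΔN form is the main one in basal cells.

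Trp63 itself had log2 ratios of cKO over control of -2.86, -1.68, -2.03 and -2.13 on arrays 1 to 4 (mean -2.18 ± 0.50, SD, n = 4; limma adjusted p = 0.00207) on its brightest probe. The other 3 Trp63 probes gave -1.77 ± 0.42, -1.44 ± 0.27 and -0.14 ± 0.10, so the probes disagree, and the mean of the probes was -1.38 (adjusted p = 0.00189). On array 1, 82.6% of cKO spots and 90.02% of control spots were well above background, against 72.4% to 76.5% on the other 3 arrays. No spot was saturated. Epithelial markers as a whole were lower in the cKO. Of 16 pan-epithelial genes, such as Cdh1 (E-cadherin), 6 fell and 0 rose, where 5.63% of all tested genes were lower and 2.92% higher. The median log2 ratio of the 16 was -0.49, and their summed normalised intensity was 94629 to 162830 in cKO ureters and 166057 to 190682 in control ureters. The per-array median of these markers was -0.86, -0.19, -0.34 and -0.62. In whole ureters, fewer cells of a type and less RNA per cell cannot be told apart. The 5 uroplakin genes and the 5 smooth muscle genes examined were above background in both genotypes on 4 arrays, and 0 of either list passed the test. Summed intensity was nevertheless lower in the cKO for the uroplakins, at 275816 to 428131 against 451978 to 518202 in control ureters. For the smooth muscle genes it was higher in the cKO, at 557959 to 602332 against 457679 to 556589. Some markers of other organs were higher in the cKO, with 4 of 7 tested intestinal genes and 5 of 10 hepatocyte genes past the threshold, where 2.92% of all tested genes were higher. Of the intestinal genes called, Phgr1 was above background on 1 of 4 control arrays, so it passed the filter through the cKO alone. The summed intensity was 5267 to 12399 in cKO and 3821 to 4515 in control ureters for the intestinal list, and 28511 to 221304 in cKO and 12184 to 42777 in control ureters for the hepatocyte list. Their part in the keratin results was not tested.

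The target sequences of 3 keratin probes are printed to show what was measured for genes of a family with similar sequences. These probes shared no run of more than 12 bases with a probe of any other keratin gene; whole transcripts were not compared. The probe for Krt4, the keratin that rose, lies at chr15:101750158-101750736 (mm9), and the Krt14 probe lies at chr11:100064683-100065288. Both are 60 bases long but span 579 and 606 bases of genome, so each joins pieces that are apart in the genome. The second probe of Krt5, which is not the one that gives its value, lies at chr15:101542056-101542115.
Krt4 probe: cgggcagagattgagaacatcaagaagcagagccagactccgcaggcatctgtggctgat
Krt14 probe: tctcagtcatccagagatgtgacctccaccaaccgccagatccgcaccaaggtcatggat
Krt5 second probe: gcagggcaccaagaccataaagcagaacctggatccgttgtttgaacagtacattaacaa
The probe with the most in common with another keratin was that of Krt81, which shares a run of 24 bases with the Krt83 probe, followed by that of Krt85, which shares 16 bases with the Krt81 probe.

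Keratins that differed between the genotypes were mostly lower in the cKO. In cKO ureters 9 keratin genes fell, namely Krt5, Krt15, Krt14, Krt7, Krt81, Krt1, Krt78, Krt6a and Krt75, and 1 rose, Krt4 (limma, adjusted p under 0.05 over all tested genes). That is 26.5% of the tested keratins lower and 2.94% higher, where 5.63% of all tested genes were lower and 2.92% were higher. The same shares of all genes stand beside the counts by keratin group and by chromosome below. Krt6a passed the filter through the control alone, where it is higher, so its call is counted but is no support on its own. With signal above background required in both genotypes on 4 arrays, 8 of 32 keratins were lower and 1 was higher. Of the 9 genes that fell, 7 are of type II and 2 of type I. The median log2 ratio was -0.25 over the 34 keratins and 0.00 over all tested genes. In all, 18 keratins were below 0 on 4 of 4 arrays while 1 was above 0 on 4 of 4. The share of all tested genes with the same sign on 4 of 4 arrays was not computed, so these counts have no background beside them. The other 24 tested keratins did not pass, with log2 ratios of -0.46 to 0.40, and 11 of them lay within 0.1 of 0.

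**Figure D1:**
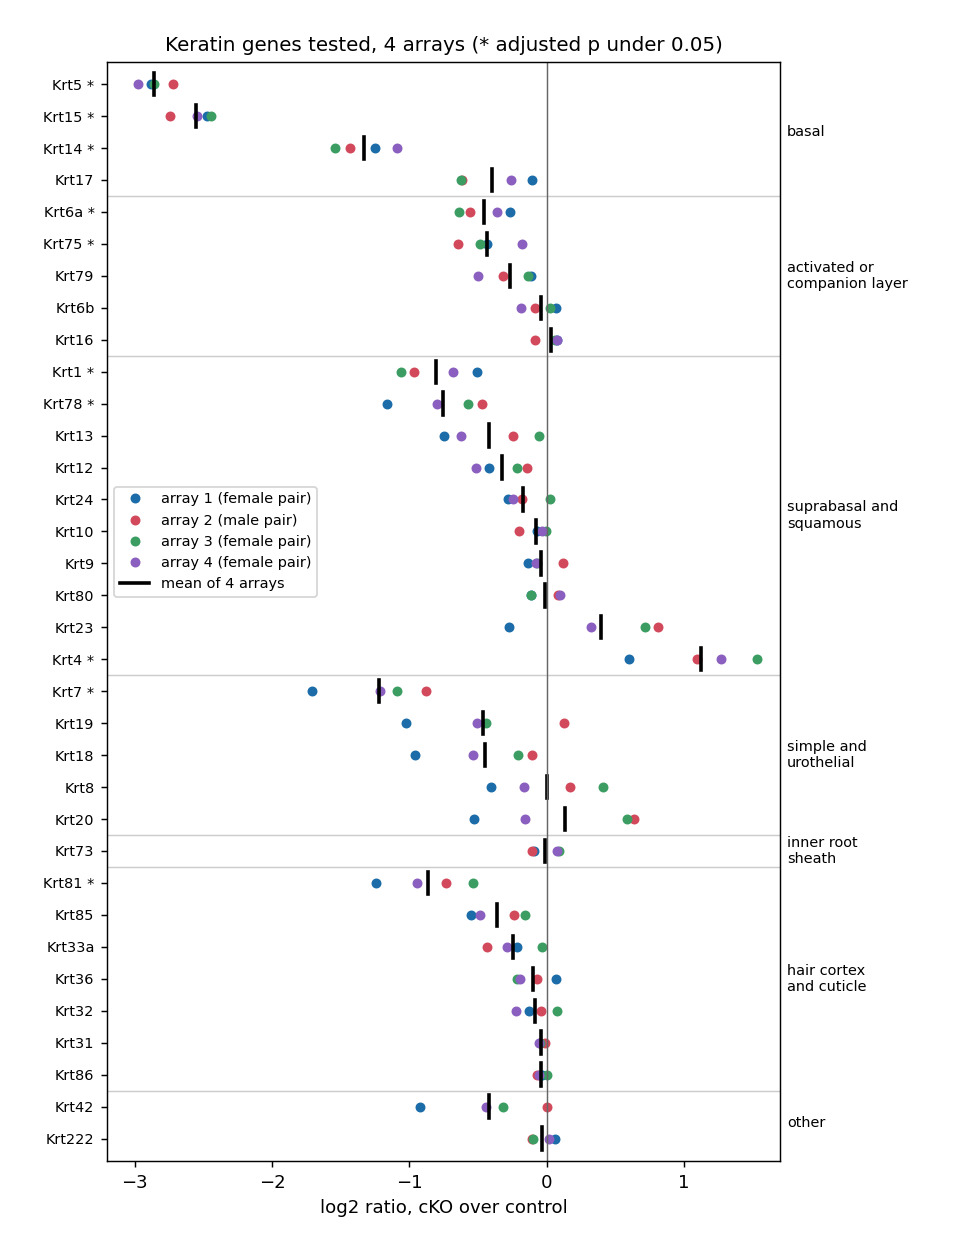
The log2 ratio of cKO over control for each of the 34 tested keratin genes, with 1 point per array and a bar for the mean. Krt5 and Krt15 sit apart at -2.86 and -2.55, and Krt4 at 1.13 is the 1 gene past the threshold above 0.

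The basal keratins showed the lowest ratios. Of 4 basal genes, 3 fell in the cKO (Krt5, Krt15 and Krt14), and the median over the 4 was -1.86, -2.08, -1.99 and -1.82 on arrays 1 to 4. Krt5, the type II keratin of basal cells, had log2 levels of 12.72, 12.48, 12.70 and 12.31 in cKO ureters and 15.61, 15.20, 15.56 and 15.29 in control ureters on arrays 1 to 4. The genotypes did not overlap, and the lowest control level was above the highest cKO level by more than the spread within either genotype. The mean ratio was -2.86 ± 0.10 (SD, n = 4; limma adjusted p = 0.000156), which is 7.26-fold lower in the cKO. The second Krt5 probe, printed above, gave -2.49 ± 0.09.

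Krt15, a type I keratin of basal and stem-like cells in several epithelia, had log2 levels of 10.66, 10.43, 10.41 and 9.76 in cKO ureters and 13.14, 13.17, 12.85 and 12.30 in control ureters. Its ratio was -2.55 ± 0.13 (SD, n = 4; limma adjusted p = 0.000156), 5.86-fold lower in the cKO. Krt14, the usual type I partner of Krt5, had 10.21, 10.45, 10.10 and 9.82 in cKO ureters and 11.46, 11.89, 11.64 and 10.92 in control ureters. For both genes every cKO level was below every control level. Krt14 was less far below 0 than Krt5 and Krt15, with a ratio of -1.33 ± 0.20 (SD, n = 4; limma adjusted p = 0.00169), 2.51-fold lower in the cKO. All of these genes stayed well above background in cKO ureters on 4 of 4 arrays. Krt17, made in basal cells of appendages and in injured epithelium, was dim: it was above background on 3 of 4 arrays in the cKO and 4 of 4 in the control, with a ratio of -0.40 ± 0.26 (limma adjusted p = 0.0987).

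**Figure D2:**
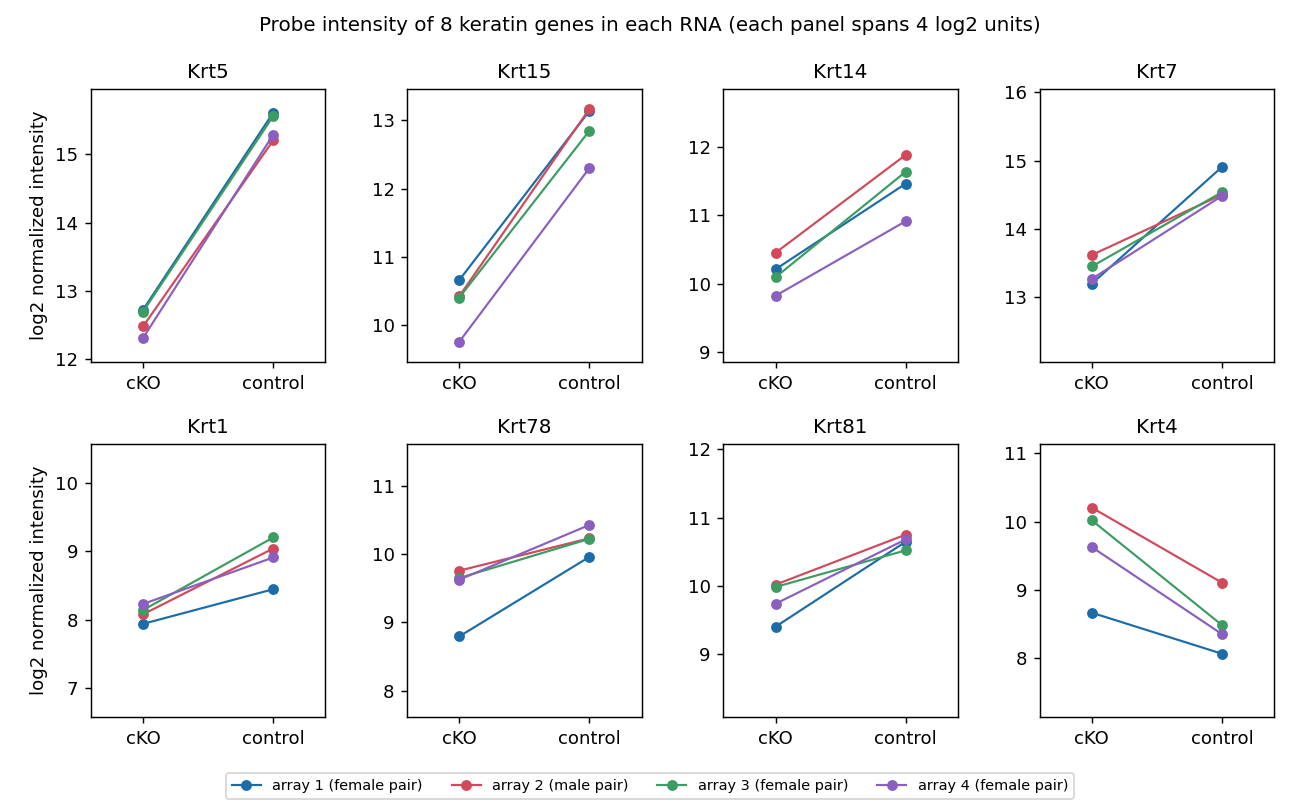
Normalised log2 intensity of 8 keratin genes per channel, with cKO left of control and a line joining the 2 channels of each of the 4 arrays. For Krt5, Krt15, Krt14, Krt7, Krt1, Krt78 and Krt81 every cKO point is below every control point, while Krt4 is higher in the cKO within each array and the genotypes overlap.

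Of the 5 keratins of simple epithelia and urothelium, 1 fell in the cKO, Krt7, and 4 did not pass. Krt7, a type II keratin of simple and transitional epithelia, had log2 levels of 13.20, 13.62, 13.45 and 13.27 in cKO ureters and 14.91, 14.50, 14.54 and 14.48 in control ureters. The genotypes did not overlap, and the ratios of -1.71, -0.88, -1.09 and -1.21 averaged -1.22 ± 0.35 (SD, n = 4; limma adjusted p = 0.00548), 2.33-fold lower in the cKO. Krt8, the other type II keratin of this group, had ratios of -0.40, 0.17, 0.41 and -0.17, on both sides of 0, with a mean of 0.00 ± 0.36 (limma adjusted p = 0.996). Its second probe gave -0.01 ± 0.38.

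Krt18, the type I partner of Krt8, had ratios of -0.96, -0.10, -0.20 and -0.54 (mean -0.45 ± 0.39; limma adjusted p = 0.139), although every cKO level lay below every control level. Krt19, a small type I keratin of many simple epithelia, had -1.02, 0.12, -0.44 and -0.51 (mean -0.46 ± 0.47; adjusted p = 0.128). Krt20, the keratin of superficial urothelial cells and gut epithelium, had -0.53, 0.64, 0.59 and -0.15 (mean 0.14 ± 0.57; adjusted p = 0.78). Array 1 gave the lowest ratio of the 4 for each of these genes, and for 15 of the 34 tested keratins. The share of all tested genes with their lowest ratio on array 1 was not computed. The group's median was -0.96, 0.12, -0.20 and -0.51 on arrays 1 to 4. The 5 uroplakin genes of superficial cells ran in the same order of arrays, with medians of -0.75, -0.16, -0.17 and -0.67, and 0 of 5 passed.

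Set against the median of the 16 pan-epithelial markers on the same array, keratins lay on both sides. Krt5, Krt15, Krt14, Krt7, Krt81 and Krt78 were below that median on 4 of 4 arrays, Krt5 by a log2 difference of -2.36 ± 0.23 and Krt7 by -0.72 ± 0.11. For Krt7 the 4 differences ran from -0.85 to -0.59, a narrower spread than that of the plain ratios. The SD was also smaller than that of the plain ratios for Krt81 (0.15 against 0.30) and Krt78 (0.06 against 0.31). For the basal genes it was larger: Krt5 (0.23 against 0.10), Krt15 (0.39 against 0.13) and Krt14 (0.46 against 0.20). Krt8 lay above the epithelial median on 4 of 4 arrays by 0.50 ± 0.17, Krt20 by 0.64 ± 0.29 and Krt4 by 1.63 ± 0.31. Many other keratins did too, among them Krt23 by 0.90 ± 0.21, Krt16 by 0.53 ± 0.36 and Krt73 by 0.49 ± 0.31. The median was below 0 on each array, so a gene with ratios near 0 lies above it. Krt18 and Krt19 lay close to it, at 0.05 ± 0.11 and 0.04 ± 0.22. These differences describe the arrays and were not tested against other genes.

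**Figure D3:**
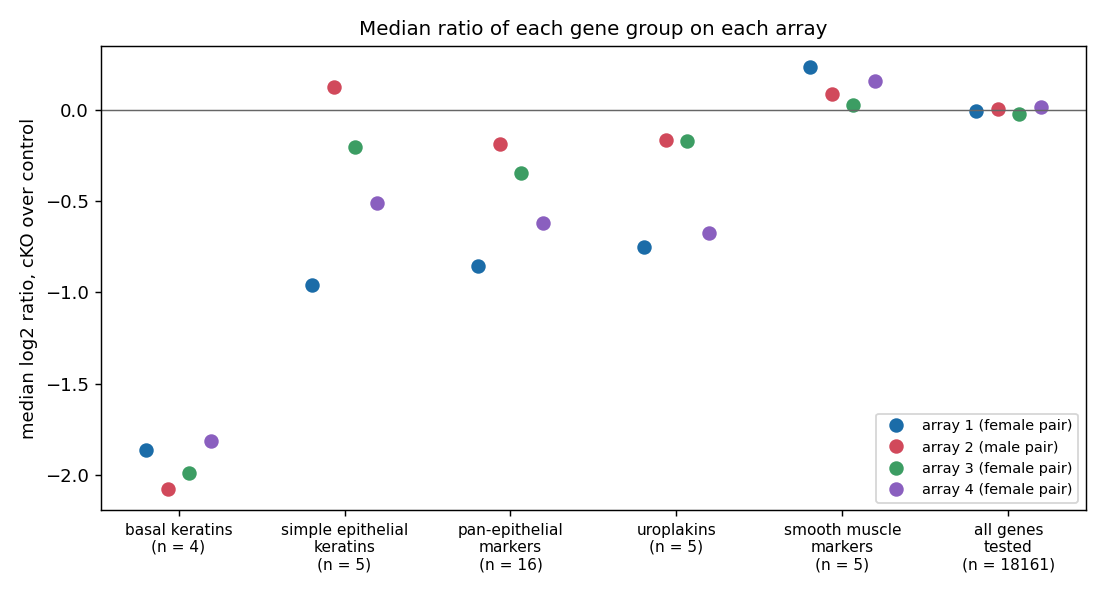
Median log2 ratio of cKO over control on each of the 4 arrays for the keratin groups and for marker lists, with 1 point per array. The basal keratins lie between -2.08 and -1.82 on all arrays, and the simple keratins spread from -0.96 to 0.12 alongside the epithelial markers.

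Among the 13 suprabasal and squamous keratins, 10 were tested, 2 fell and 1 rose in the cKO. Krt4, the type II keratin of oesophagus and other moist squamous linings, had log2 levels of 8.67, 10.20, 10.02 and 9.63 in cKO ureters and 8.07, 9.11, 8.49 and 8.35 in control ureters. The genotypes overlapped across arrays, although the cKO was higher within each of the 4 arrays. Its ratios of 0.60, 1.10, 1.53 and 1.27 averaged 1.13 ± 0.39 (SD, n = 4; limma adjusted p = 0.0151), 2.18-fold higher in the cKO. Without array 4 the Krt4 call was lost (adjusted p = 0.0626, ratio 1.08). Krt13, the type I partner of Krt4, had a ratio of -0.42 ± 0.32 on its bright probe (limma adjusted p = 0.136), and every cKO level was below every control level. A second, dim Krt13 probe was well above background on 0 arrays in the cKO and on 4 in the control, a difference of at least 1.88-fold lower in the cKO. This probe passed the filter only through the control, where it is higher, so no p-value is given for it.

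Krt1, the type II keratin of epidermal suprabasal cells, had log2 levels of 7.94, 8.08, 8.14 and 8.23 in cKO ureters and 8.44, 9.04, 9.20 and 8.91 in control ureters, without overlap. Its ratio was -0.80 ± 0.26 (limma adjusted p = 0.0142), 1.74-fold lower in the cKO. Krt10, its type I partner, had ratios of -0.07, -0.20, 0.00 and -0.03 on the brighter probe (mean -0.07 ± 0.09). The other Krt10 probe gave -0.34 ± 0.14 and passed among probes (limma adjusted p = 0.0275), so the Krt10 probes disagree. The position given for the brighter probe, chr11:99246538-99246558 (mm9), is shorter than that of the other, chr11:99247846-99247905. It is not settled which of them gives the Krt10 ratio. Krt78, a type II keratin of differentiating stratified epithelia, had -1.16, -0.47, -0.57 and -0.80 (mean -0.75 ± 0.31; limma adjusted p = 0.0209), and its second, overlapping probe gave -0.72 ± 0.30. Without array 4 the adjusted p of Krt78 was 0.0812.

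Of 12 cornified epidermis markers, 7 were tested and 1 passed, where 2.92% of all tested genes were higher. It was Lor (loricrin), which was higher in the cKO (0.62 ± 0.06; limma adjusted p = 0.00319). Flg, Flg2, Dsg1a, Klk5 and Klk7 were not among the tested genes, and the 7 that were tested summed to 4410 to 4874 in cKO and 4174 to 5527 in control ureters. The part of skin or other epidermis in the Krt1 values was not tested. The other suprabasal keratins tested, Krt9 of palms and soles, Krt12 of the cornea, Krt23, Krt24 and Krt80, did not pass. Krt23 had the highest ratio among them, -0.27, 0.81, 0.72 and 0.32 (mean 0.40 ± 0.49), and Krt12 the lowest, at -0.32 ± 0.17.

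In the group of activated and companion layer keratins 2 of 5 fell in the cKO, by small amounts and at low signal. Krt6a, induced in wounded epidermis, had a ratio of -0.45 ± 0.17 (limma adjusted p = 0.0328), with signal above background on 2 of 4 arrays in the cKO and 4 of 4 in the control. It passed the filter only through the control, where it is higher, so its p-value is no support for this difference. The size of this difference is not settled: it was -1.35 (adjusted p = 0.0114) with Agilent's processed signals and -0.18 (adjusted p = 0.233) in the deposited value table. Krt75, of the companion layer of the hair follicle, had -0.44, -0.64, -0.49 and -0.18 (mean -0.44 ± 0.19; limma adjusted p = 0.0455), 1.35-fold lower in the cKO. Both calls were fragile: the adjusted p of Krt6a was 0.104, 0.0923 and 0.0787 without array 2, 3 or 4, and that of Krt75 was 0.148, 0.0803 and 0.144 without array 1, 2 or 3. Krt16, the usual type I partner of the Krt6 keratins, had a ratio of 0.03 ± 0.08, Krt6b had -0.04 ± 0.12 and Krt79, of the hair canal, had -0.27 ± 0.18 (limma adjusted p = 0.0522). A second, dimmer Krt6b probe gave -0.36 ± 0.16. It was above background on 0 arrays in the cKO and 3 in the control, so it was not tested.

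Hair keratins were mostly dim. Of 15 hair cortex and cuticle genes, 7 were tested and 1 fell, Krt81, with ratios of -1.24, -0.73, -0.54 and -0.94 (mean -0.86 ± 0.30; limma adjusted p = 0.0173), 1.82-fold lower in the cKO and without overlap of the genotypes. Without array 4 its adjusted p was 0.0719. The Krt83 probe, which shares the longest run with that of Krt81, was above background on 0 arrays. Krt85 had -0.36 ± 0.19 on its bright probe (limma adjusted p = 0.0738), which the files place nowhere in the genome, and 0.07 ± 0.12 on a probe that they place in the keratin cluster. Since these probes disagree, it is not settled that the bright one measures Krt85. Krt31, Krt32, Krt33a, Krt36 and Krt86 had ratios of -0.24 to -0.04. Of 8 hair follicle markers 4 were tested and 2 fell, where 5.63% of all tested genes were lower. These were S100a3 (-1.28 ± 0.10; limma adjusted p = 0.000636) and Padi3 (-0.82 ± 0.25; adjusted p = 0.0115). The other 2 tested, Tchh at 0.22 ± 0.26 and Msx2 at 0.09 ± 0.36, had means above 0 and did not pass. Hoxc13, Foxn1, Krtap8-1 and Krtap11-1 were not among the tested genes. The 4 tested markers summed to 5812 to 10039 in cKO and 7328 to 9326 in control ureters, and their part in the Krt81 value was not tested.

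Of the 8 inner root sheath keratins Krt73 alone was tested, with a ratio of -0.01 ± 0.11. Outside these groups, Krt42, a nail keratin in the mouse, had -0.92, 0.01, -0.32 and -0.44 (mean -0.42 ± 0.39; limma adjusted p = 0.122), and Krt222 had -0.03 ± 0.09. The probes of both genes disagree in signal. For Krt42 the mean signal was 20869 on the probe used and 50.7 on the other, which was above background on 0 arrays. For Krt222 it was 10407 and 87.9. It is not settled that the bright probes measure these genes. The 18 keratins that were not tested were Krt2, Krt25, Krt26, Krt27, Krt28, Krt33b, Krt34, Krt35, Krt39, Krt40, Krt71, Krt72, Krt74, Krt76, Krt77, Krt82, Krt83 and Krt84. For 12 of them no array was above background in either genotype, and 6 were above background on some arrays. A keratin that is dim in both genotypes has only an upper bound on these arrays, so no fold is given. Krt88 and Krt90, which the files list under clone names outside the naming rule, were also too dim to test.

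Since filaments need both types, partner genes were set against each other within each array, as the log2 ratio of the type II gene minus that of the type I gene. Krt5 was further below 0 than Krt14, with a difference of -1.63, -1.29, -1.32 and -1.88 (mean -1.53 ± 0.28, SD, n = 4). Krt5 and Krt15 were closer, at -0.31 ± 0.22, and that difference was near 0 on array 2. Krt7 minus Krt19 was -0.76 ± 0.17 and Krt1 minus Krt10 was -0.73 ± 0.26, both below 0 on 4 of 4 arrays. The Krt10 value used was that of its brighter probe, and its other probe had a lower ratio, -0.34 ± 0.14. In the other direction, Krt8 minus Krt18 was 0.45 ± 0.16 and Krt4 minus Krt13 was 1.54 ± 0.26, both above 0 on 4 of 4 arrays. Krt8 minus Krt20 was -0.13 ± 0.25, with both signs. Over the 7 pairs, the 5 whose sign was the same on 4 arrays had p = 0.125 by an exact two-sided sign-flip permutation test, the smallest that 4 arrays allow, and 0.175 after Benjamini-Hochberg adjustment. No pair could therefore pass the threshold. The values compare ratios and not the amounts of the partners, since levels of different probes cannot be set against each other.

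**Figure D4:**
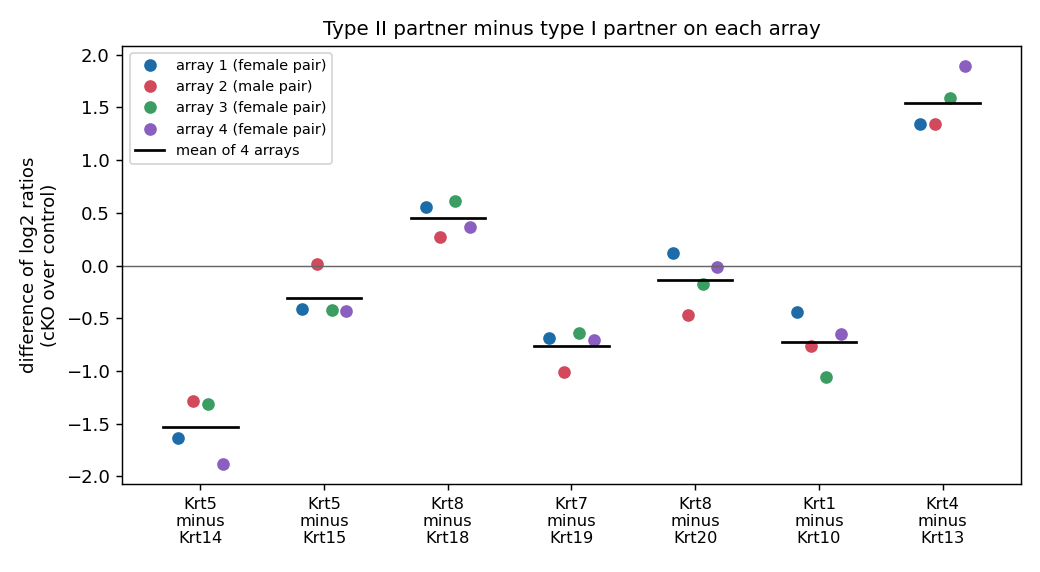
Log2 ratio of the type II keratin minus that of its type I partner on each array for 7 pairs, with the mean as a bar. Krt5 and Krt14 lie at -1.53, Krt4 and Krt13 at 1.54, and Krt8 and Krt18 at 0.45.

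In the mouse the type II genes and Krt18 lie in a cluster on chromosome 15 and the other type I genes in a cluster on chromosome 11. The probes used on chromosome 15 cover chr15:101180014-101862400 (mm9), with 24 genes, of which 15 were tested, 7 fell and 1 rose. Those on chromosome 11 cover chr11:99095480-100128311, with 27 genes, of which 18 were tested and 2 fell. Krt6a and Krt5 were neighbours in probe order, and no other pair of genes that fell was. Krt15 lies between Krt13 and Krt19, which did not pass, and Krt14 lies between Krt9 and Krt16, at -0.04 and 0.03. Krt5 lies between Krt6a, at -0.45, and Krt71, which was too dim to test. Krt4 is followed by Krt79 and Krt78, so the keratin that rose is near one that fell, and Krt8 and Krt18 are neighbours at the end of the cluster.

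**Figure D5:**
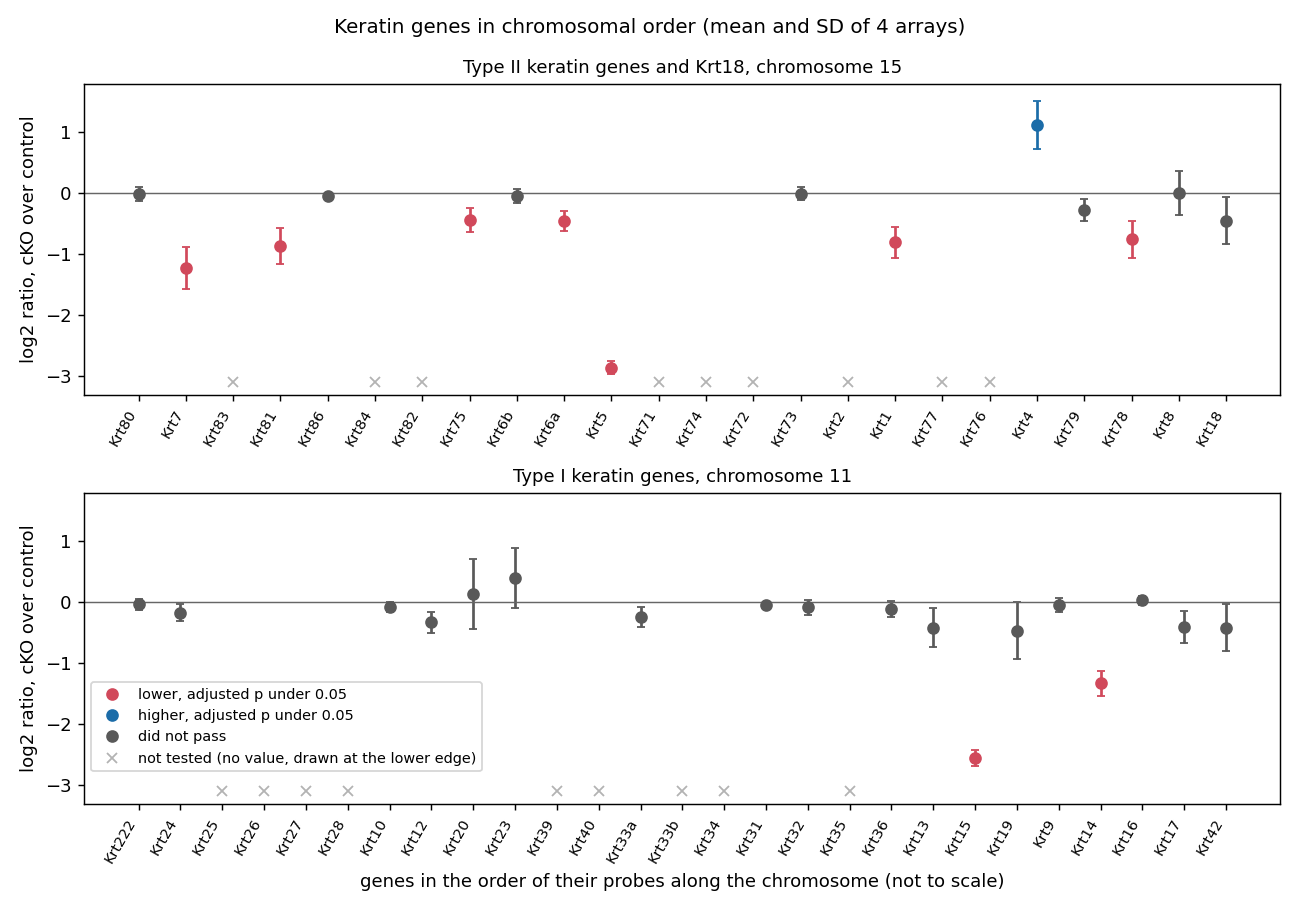
Mean log2 ratio of cKO over control with its SD over 4 arrays, for keratin genes in the order of their probes along chromosome 15 (above) and chromosome 11 (below). Genes too dim to test are crosses at the lower edge with no value, and Krt85, whose probe has no position, is left out.

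Promoters of 3 chromosome 15 keratins with different ratios are printed, covering the 250 bases before the gene start (RefSeq, GRCm38.p6): Krt5 at -2.86, Krt7 at -1.22 and Krt8 at 0.00. Capitals mark matches on either strand to the core of the sequence that p53 family proteins bind, which is CNNG, 6 free bases and CNNG again.
Krt5 chr15:101712906-101713155, minus strand: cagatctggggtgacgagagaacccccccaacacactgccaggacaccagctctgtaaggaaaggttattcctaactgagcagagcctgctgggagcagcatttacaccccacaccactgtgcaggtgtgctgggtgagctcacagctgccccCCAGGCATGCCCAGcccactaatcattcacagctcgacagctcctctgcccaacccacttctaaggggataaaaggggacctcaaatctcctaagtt
Krt7 chr15:101412153-101412402, plus strand: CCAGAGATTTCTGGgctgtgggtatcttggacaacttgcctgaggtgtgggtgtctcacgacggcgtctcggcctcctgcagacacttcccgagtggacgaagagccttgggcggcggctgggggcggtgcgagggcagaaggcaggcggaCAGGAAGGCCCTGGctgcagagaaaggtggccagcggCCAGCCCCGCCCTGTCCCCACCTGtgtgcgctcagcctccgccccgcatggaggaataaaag
Krt8 chr15:102004343-102004592, minus strand: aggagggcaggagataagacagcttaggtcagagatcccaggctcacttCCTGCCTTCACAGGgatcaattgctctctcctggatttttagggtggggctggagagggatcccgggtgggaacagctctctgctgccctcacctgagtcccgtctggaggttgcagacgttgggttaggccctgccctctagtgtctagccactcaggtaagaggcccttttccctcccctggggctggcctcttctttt
All 3 promoters hold the core, Krt7 in 4 places of which 2 overlap. The core is common: it occurs in 63.5% of all 32851 promoters of this length and in 18 of 36 promoters of the 35 keratin genes found in the table. Among the 5 promoters of keratins that fell (Krt5, Krt7, Krt14, Krt75 and Krt78), 3 hold it. The shorter p53 family sequence ACATGT occurs in 0 of 36 keratin promoters and 4.58% of all, and the AP-2 sequence GCCNNNGGC in 4 of 36 (1 of the 5) and 13.7% of all. The TATA box TATAAA occurs in 17 of 36 keratin promoters (47.2%) (0 of the 5) and 12.4% of all. The GC box GGGCGG occurs in 2 of 36 (Krt7 and Krt75, 2 of the 5) and 32.7% of all. Each sequence was searched on both strands, and a match does not show that a factor binds.

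A list of 16 genes that link keratin filaments to junctions, organise them or are named for association with keratin was also tested. Of these, 5 fell in the cKO, 0 rose and 11 did not pass, where 5.63% of all tested genes were lower, and the median log2 ratio was -0.24. The list includes Krtcap2, Krtcap3 and Krtdap, which are not filament linkers, and none of these passed. Pkp1, a plakophilin of desmosomes in stratified epithelia, had -2.54, -2.40, -2.73 and -2.67 (mean -2.59 ± 0.15; limma adjusted p = 0.000234). Dsp (desmoplakin), which anchors keratin filaments to desmosomes, had -1.24 ± 0.35 (adjusted p = 0.00404), and Eppk1 (epiplakin) and Ppl (periplakin), both cytolinkers that bind keratins, had -0.92 ± 0.15 and -0.89 ± 0.32. Intermediate filament genes other than keratins did not pass: 0 of 14 tested did in either direction, with a median of 0.04. The brightest of them, Vim (vimentin) of mesenchymal cells and Lmnb1 (a nuclear lamin), had -0.10 ± 0.31 and 0.03 ± 0.30.

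Of 21 transcription factors known to act on keratin genes, 10 fell and 0 rose in the cKO, where 5.63% of all tested genes were lower, with a median of -0.59 and Trp63 being 1 of the 10. The per-array medians of this list, -1.02, -0.05, -0.46 and -0.60, ran in the same order of arrays as those of the pan-epithelial markers given above, whose part in the count was not tested. Sox15 had -2.24 ± 0.10 (limma adjusted p = 0.000234), Hr (hairless, a corepressor of the hair follicle) had -2.67 ± 0.17 (adjusted p = 0.000275), and Tfap2a (AP-2α) had -1.20 ± 0.03 (adjusted p = 0.000571). The genes outside the keratin family whose 4 ratios came closest to those of Krt5 were Ly6d, Dnmt3l, Anxa8, Mir205hg and Hr, with a root mean square distance of 0.0786, 0.141, 0.199, 0.227 and 0.23 log2 units over 4 arrays. Krt15 lay at 0.364 and Krt14 at 1.55, so some genes of other families followed the Krt5 ratios more closely than either did.

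The male pair was compared with the 3 female pairs by a further coefficient in the model. At an adjusted p of 0.05, 0 of 34 keratins and 0% of all tested genes differed (limma), and the lowest adjusted p of a keratin was 0.969. At an unadjusted p under 0.05 there were 1 keratin and 862 genes, or 4.75% of all. With 1 male pair this says little about small differences.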

How the data were processed

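Per the labels' protocols, 200 ng of total RNA from dissected ureters went through 1 round of amplification and was labelled with AlexaFluor555 or AlexaFluor647. Images were read by the authors in Agilent Feature Extraction (version 10.7.3.1, per the submitters' processing notes), who deposited spot intensity values on a linear scale. The deposited value table holds log2 ratios with a median of 0 per array; comparison with the scanner values showed the direction (cKO over control) and centring, and the sources used here do not give how its exact zeros arose. Deposited probe positions are mm9.

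From the intensities, mean signals were corrected with normexp (offset 50) and loess within arrays (limma 3.58.1, R 4.3.3), ratios were turned to cKO over control, outlier spots were left out, and the 4 spots of a probe were averaged. A gene was tested if a probe was well above background on 4 arrays in at least 1 genotype, so a keratin seen in 1 genotype alone could enter. Of the 34 tested keratins, 32 passed in both genotypes. The brightest passing probe stood for the gene; 7 tested keratins had several. Ratios were tested with lmFit and eBayes with dye as a term (2 residual degrees of freedom) and Benjamini-Hochberg adjustment over 18161 genes. Log2 levels per channel are after loess and Aquantile normalization between arrays. The 4 arrays shared 1 slide. The pipeline was tested on simulated data.

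Array pairing comes from hybridisation of both RNAs to the same array; fits of separate channels used the array as a block (intraspot correlation 0.741, statmod 1.5.0). Per-array ratios correlated at r = 0.53 to 0.73 across genes (genes are no independent replicates). The keratins and all lists were chosen with earlier results of these data known. All keratins are accounted for. From other lists at most 4 called members, by lowest p, are named, or the 2 brightest where none was called. Of the hair follicle markers all that were tested are named.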

Additional observations from a re-analysis of the deposited data

Results flagged for a closer look

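Krt16 had a ratio of -0.086 on array 2, far from the other 3 arrays at 0.06 to 0.08, a gap of 0.902 of the whole range. About 1 in 20 groups of this kind is picked out by chance. Single female pairs also stood alone in sign, array 3 for Krt24, Krt32 and Krt86, and array 1 for Krt23 and Krt36. On the male pair (array 2) the sign was opposite to all 3 female pairs for 4 keratins: Krt9 at 0.12, Krt16 at -0.086, Krt19 at 0.12 and Krt42 at 0.0066. For each of these the coefficient for the male pair did not pass (limma, adjusted p of at least 0.969).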

How the results depend on the processing

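Krt5, Krt15, Krt14, Krt7 and Trp63 passed under all 15 alternatives. Keratins lower in the cKO numbered 4 with the deposited value table, 15 with separate channels and the array as a replicate block, 5 without that block, and 6 to 8 without 1 array each, against 9 as reported. Keratins higher numbered 0, 1, 0 and 0 to 1 in the same order, against 1. For all genes, 595, 1730, 438 and 554 to 770 were lower, against 1023, and 258, 1235, 121 and 277 to 360 were higher, against 530. The separate-channel fit with the replicate block added Krt13, Krt17, Krt18, Krt19, Krt42 and Krt85 (the unmapped probe). The deposited table lost the calls of Krt4 (1.33, adjusted p = 0.0528), Krt1 (-0.99, 0.0519), Krt81 (-0.89, 0.0574), Krt78 (-0.80, 0.0797), Krt75 (-0.54, 0.107) and Krt6a (-0.18, 0.233); of these only Krt6a had a smaller ratio than reported. Averaging all passing probes added Krt13 (-0.71, adjusted p = 0.00344) and Krt79 (-0.27, 0.0485), leaving out the dye term added Krt12 (0.043) and Krt85 (0.036), and Agilent's processed signals added Krt33a (-0.66, 0.0308). The Krt13 average includes its dim second probe, which passed the filter only through the control. Krt75 was lost with Agilent's processed signals (0.0606) and without the filter on dim probes (0.0589). The causes were not tested.

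Sign changes were limited to keratins that did not pass: Krt73 and Krt80 at 0.0077 and 0.022 with Agilent's processed signals, Krt222, Krt73 and Krt80 at 0.00315, 0.026 and 0.021 in the deposited table, Krt8 at -0.01 with median centring, Krt73 and Krt8 at 0.0026 and -0.0056 with outlier spots kept, and Krt222 and Krt8 at 0.042 and -0.0051 with probes averaged. Without 1 array the ranges that included both signs were -0.055 to 0.039 for Krt73, -0.14 to 0.41 for Krt20, -0.20 to 0.20 for Krt8, -0.073 to 0.0089 for Krt222, -0.0082 to 0.074 for Krt16 and -0.088 to 0.011 for Krt9. Under the stricter background filter Krt6a and Krt17 gave no value. The number of arrays, 4, and the low signal of 18 keratins limit these results.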
